A study of Mus musculus with 21 samples.

Results

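The genes described here are the carriers of glucose, amino acids and lactate, taken as every gene on the array whose symbol begins with Slc1a, Slc2a, Slc3a, Slc6a, Slc7a, Slc16a, Slc38a or Slc43a. That rule gave 80 of the 19057 genes that had a named probe, and where a gene had several probes the brightest over the 21 arrays stood for it. Of the 80 genes, 57 had all 7 group means under a level of 7.0 on the log2 scale and were marked as near background, as were 10475 of all 19057 genes. The 23 genes above the mark came from all 8 families, with 5 each in Slc6a and Slc38a, 3 each in Slc2a, Slc7a and Slc16a, 2 in Slc1a, and 1 each in Slc3a and Slc43a. Members of the Slc7a and Slc2a groups by name alone were Slc7a6os, the gene on the strand opposite to Slc7a6, and Slc2a4rg-ps, a pseudogene.

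The cells were C2C12, an immortalized mouse myoblast line that fuses into myotubes (MTs) when serum is withdrawn. Expression was measured on Illumina bead arrays in 7 groups of 3 arrays: untransduced myoblasts (MBs) in growth medium at day 0, and 6 groups of MTs at day 6 of differentiation. All MT groups had been kept in 2% horse serum, had received 1 µM tetrodotoxin during differentiation to stop contraction (the labels and the study's methods give different start times), and were enriched by a brief trypsin step that releases MTs before mononucleated cells. They were untransduced MTs, control MTs that carried a control short hairpin RNA (shRNA) vector, and MTs of stable knockdown (KD) lines for NET39, TMEM38A, WFS1 or TMEM214, which are muscle nuclear envelope transmembrane proteins (NETs). All 5 transduced groups had passed through lentiviral transduction and puromycin selection. The labels name 1 shRNA per target without the number of lines made, so the 3 replicates of a KD may share 1 line.

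Values are deposited log2 intensities, quantile normalized over the arrays, with no background subtraction described. The lowest value was 6.30 and the background level 6.60 on every array, so ratios of dim genes are understated and levels of different genes are not comparable. Mean scanner intensity was 172 to 289 on untransduced and 301 to 533 on transduced arrays, so transduction and array brightness cannot be told apart. Untransduced MB replicate 1 stood apart, with 411 genes more than 1 log2 unit from the mean of the other 2 replicates, whereas replicates 2 and 3 differed by that much in 10 genes. Each target was lower than control in its own line, with log2 ratios of -1.44 for Plpp7, the gene of NET39, -3.86 for Tmem38a, -3.54 for Wfs1 and -0.94 for Tmem214. Some targets were also called lower in another line, by the rule given below. These were Wfs1 (-1.03), Plpp7 (-0.96) and Tmem38a (-0.57) in TMEM214 KD, and Wfs1 (-0.70) in TMEM38A KD. All 9 measured myotube markers were higher in untransduced MTs than in MBs, and 4 of 5 adipocyte markers were at background in every MT group. Against control, 4 of the 9 myotube markers were called lower in TMEM214 KD (Mb, Ckm, Tnnt3 and Atp2a1), 2 in NET39 KD (Ckm and Atp2a1) and 1 in WFS1 KD (Mymk). In TMEM38A KD Casq2 and Myog were lower and Mb and Ckm higher. Of all genes, 2.08% to 2.9% were called lower per KD. The study reports a smaller fraction of nuclei within MTs for NET39 and TMEM38A KD.

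Carriers of the SLC2 family move sugars down their gradient, whereas most SLC1, SLC6 and SLC38 carriers use the sodium gradient to concentrate amino acids, osmolytes and creatine. SLC7 light chains exchange amino acids across the membrane and many of them reach it only when bound to the heavy chain encoded by Slc3a2. SLC16 carriers move monocarboxylates such as lactate. In skeletal muscle the best known members are GLUT1 and the insulin-regulated GLUT4 for glucose, MCT1 and MCT4 for lactate, the taurine and creatine carriers, and the glutamine carriers of the SLC38 family.

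Throughout, a gene was called changed when its ratio exceeded 0.5 on the log2 scale with an adjusted p below 0.05 in the limma fit over all 21 arrays and all 19057 genes. Of the 80 carrier genes, 11 were called in at least 1 of the 6 comparisons with a reference group and 14 in at least 1 of 12 comparisons including the pairs of KDs. These are 13.8% and 17.5% of the carrier genes, beside 24.4% and 27.2% of all genes called in the same comparisons. Among genes above the mark the shares were 47.8% and 60.9% of the 23, beside 54.2% and 60.4% of all such genes. By limma 0 of the 57 near-background genes were called in any of these. Per comparison 3 to 9 of them had an unadjusted p under 0.05, and 1 to 5 an adjusted p under 0.05. Of all genes, 5186 of the 5188 called in any of the 12 comparisons were above the mark. Means held under 7.0 near the floor leave little room for a ratio above 0.5, so the lack of calls does not show unchanged transcripts. With background-corrected scanner intensities 4 of the 57 genes, Slc16a4, Slc2a4, Slc6a2 and Slc7a7, were called somewhere. The 66 genes never called comprised these 57 and 9 above the mark, namely Slc2a8, Slc7a4, Slc7a6, Slc7a6os, Slc16a13, Slc38a1, Slc38a9, Slc38a10 and Slc43a1. On the arrays, 10 genes were never above the background level, among them the liver glucose carrier gene Slc2a2, and 20 were above it on all 21. The carriers of noradrenaline (Slc6a2), dopamine (Slc6a3), serotonin (Slc6a4) and GABA (Slc6a11 and Slc6a13) were near background, whereas the glycine carrier gene Slc6a9 was above it on all 21 arrays.

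**Figure D1:**
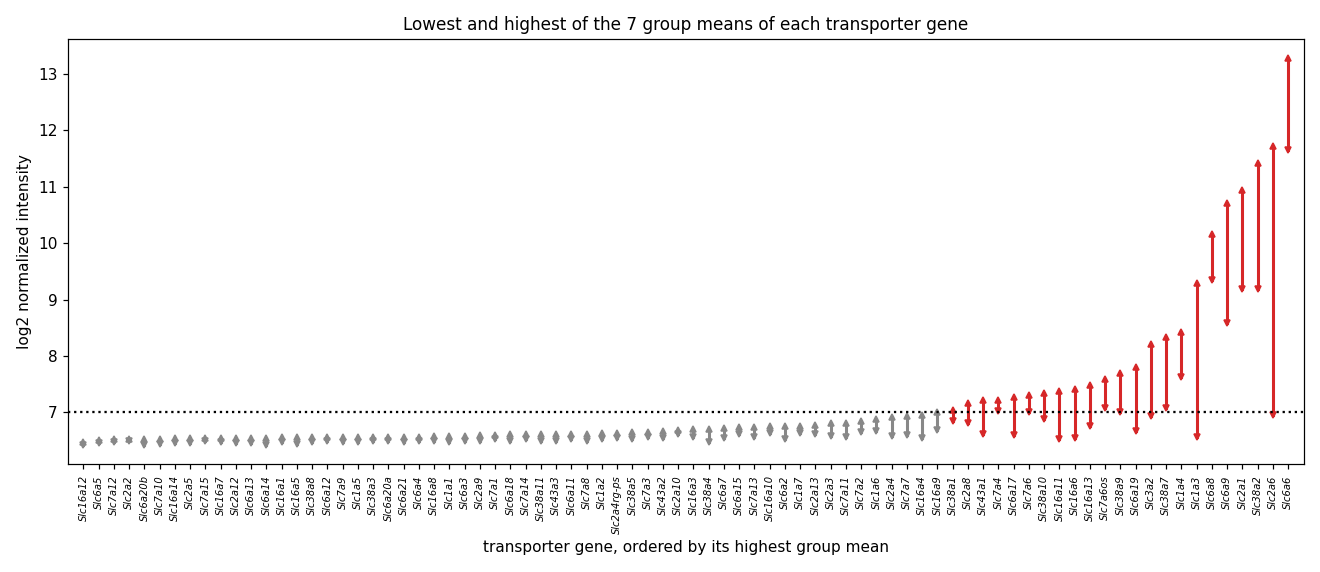
Lowest (downward triangle) and highest (upward triangle) of the 7 group means of each of the 80 carrier genes, in log2 normalized intensity, with the genes ordered by their highest mean. The dotted line is the 7.0 mark: 57 genes (grey) lie under it in every group and 23 (red) reach it in at least 1 group, with the widest span for Slc2a6, from 6.96 to 11.73. Intensities of different probes are not comparable, so the order shows only the side of the mark.

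Glucose carriers come first. Slc2a6 encodes GLUT6, a facilitative sugar carrier that is kept mostly on intracellular membranes, and it spanned a wider range than any other carrier gene on these arrays. Its promoter window and that of the glutamate carrier gene Slc1a3 are shown because 1 or the other had the largest ratio in myogenesis and in NET39, TMEM38A and TMEM214 KD, and that of Slc1a4 because it held a searched motif. Each window runs from 250 bases before to 50 bases after the RefSeq transcription start on GRCm38.p6, written 5′ to 3′ on the gene's strand.
Slc2a6, chr2:27027949-27028248, minus strand: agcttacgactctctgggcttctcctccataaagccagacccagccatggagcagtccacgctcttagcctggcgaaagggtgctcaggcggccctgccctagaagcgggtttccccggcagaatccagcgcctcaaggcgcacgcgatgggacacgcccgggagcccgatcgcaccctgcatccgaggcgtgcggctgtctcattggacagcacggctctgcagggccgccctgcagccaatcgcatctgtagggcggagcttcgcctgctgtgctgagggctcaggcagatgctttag
Slc1a3, chr15:8710758-8711057, minus strand: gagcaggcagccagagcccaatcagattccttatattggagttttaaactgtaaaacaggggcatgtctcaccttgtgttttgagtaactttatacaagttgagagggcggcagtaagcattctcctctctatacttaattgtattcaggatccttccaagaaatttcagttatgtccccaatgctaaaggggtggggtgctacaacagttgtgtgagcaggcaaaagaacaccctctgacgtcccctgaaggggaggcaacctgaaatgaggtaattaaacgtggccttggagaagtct
Slc1a4, chr11:20332664-20332963, minus strand: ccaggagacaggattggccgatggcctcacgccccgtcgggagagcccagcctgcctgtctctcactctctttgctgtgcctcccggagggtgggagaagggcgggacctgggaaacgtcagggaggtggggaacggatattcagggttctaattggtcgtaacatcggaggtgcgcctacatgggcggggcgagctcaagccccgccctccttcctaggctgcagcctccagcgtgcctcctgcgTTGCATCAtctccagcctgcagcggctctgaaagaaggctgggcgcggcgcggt
Capitals mark the 1 match to TGATGNAA, the core of the amino acid response element, which lies on the opposite strand of the Slc1a4 window. RefSeq windows matched 58 of the 80 genes, with 79 windows in all, because some genes have several starts. On either strand, TGATGNAA was in 5 of these 79 windows (6.33%), in those of Slc1a4, Slc6a21, Slc7a11 and Slc7a7, against 3.97% of all 32851 windows. The E-box CACGTG was in 9 windows (11.4% against 7.15% of all), including those of Slc16a1, Slc38a7 and Slc43a1, and the MEF2 site in 3 (3.8% against 3.69%), namely those of Slc2a10, Slc2a12 and Slc38a10. The GC content was 64.7% in the Slc2a6 window and 45.3% in the Slc1a3 window, beside a median of 52.7% over all windows. Only Slc1a4 among the 3 windows printed held any of the 3 motifs.

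In MBs Slc2a6 read 6.61, 7.10 and 7.16 on the 3 arrays, close to background, and in untransduced MTs it read 11.58, 11.21 and 10.85. Control MTs read 11.66, 11.88 and 11.65. All MT arrays of these groups lay far above all MB arrays. The myogenesis ratio was 4.26 (SE 0.15, 19.1-fold, adjusted p = 3.38e-13), and was 4.08 without MB replicate 1. Control MTs were higher than untransduced MTs by 0.52 (SE 0.15, 1.43-fold, adjusted p = 0.0257), with no overlap, but that call was lost without untransduced MT replicate 3 (ratio 0.33) or 2, without control replicate 2 (0.44), and with background-corrected and quantile-normalized scanner intensities (0.54, adjusted p = 0.0584). With median scaling of the scanner intensities the ratio was 1.92 (adjusted p = 8.38e-06).
Slc2a6 was lower than control in 3 of the 4 KDs. In TMEM38A KD it read 8.47, 8.49 and 8.38, which is 9.73-fold under control (log2 ratio -3.28, SE 0.15, adjusted p = 1.59e-10). In WFS1 KD it read 10.40, 10.43 and 10.43 (ratio -1.31, 2.48-fold, adjusted p = 1.31e-05). The TMEM38A arrays lay between MBs and every other MT group, with no overlap with either. In TMEM214 KD the arrays read 10.72, 10.79 and 10.50 (ratio -1.06, 2.09-fold, adjusted p = 0.000127), and in NET39 KD they read 11.27, 11.30 and 11.18, a ratio of -0.48 that stayed under the ratio threshold (adjusted p = 0.0468). Order among the KDs was tested directly. NET39 exceeded TMEM214 by 0.58 (adjusted p = 0.0274), a call lost when any 1 NET39 replicate or TMEM214 replicate 1 or 3 was left out. That call was also lost with background-corrected scanner intensities, after quantile normalization and after median scaling. WFS1 and TMEM214 KD, with means of 10.42 and 10.67, were not called different (ratio -0.25, SE 0.15, adjusted p = 0.401). TMEM38A against WFS1 KD had a ratio of -1.97 (SE 0.15, adjusted p = 6.91e-08). Against untransduced MTs instead of control MTs, the ratios were -2.77 for TMEM38A, -0.79 for WFS1 and -0.54 for TMEM214, all still called.

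Slc2a1 encodes GLUT1, the carrier of basal glucose uptake in most dividing cells. MB arrays read 10.35, 10.36 and 10.61 and untransduced MT arrays 8.99, 9.36 and 9.20, without overlap, so the level fell by 1.26 on the log2 scale (SE 0.11, 2.39-fold, adjusted p = 1.09e-07). Control MTs read 9.45, 9.80 and 9.40, a ratio of 0.37 to untransduced MTs, which was not called.
WFS1 KD arrays read 11.03, 10.90 and 10.90, above every other array of the series including those of MBs. Compared with control MTs, Slc2a1 rose in WFS1 KD by 1.39 (SE 0.11, 2.63-fold, adjusted p = 3.41e-07). It also rose in TMEM38A KD, where arrays read 10.02, 10.13 and 10.23 (ratio 0.58, 1.49-fold, adjusted p = 0.00216), although this fell to 0.21 and was no longer called with median scaling of the scanner intensities. TMEM214 KD (9.98, 9.90 and 9.67, ratio 0.30) overlapped control, and NET39 KD (9.16, 9.30 and 9.34, ratio -0.28) lay under it, neither of them called. The difference between NET39 and WFS1 was -1.68 (SE 0.11, adjusted p = 1.71e-08), and that between WFS1 and TMEM214 was 1.09 (adjusted p = 4.10e-06).

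The other glucose carriers gave little signal. Slc2a8, which encodes the intracellular carrier GLUT8, had group means of 6.82 to 7.16, just inside the mark. Its ratio to control was -0.32 in TMEM38A KD (adjusted p = 0.00233) and -0.23 in NET39 KD (adjusted p = 0.0252), both short of the ratio threshold. Slc2a4, which encodes GLUT4, was just under the mark with group means of 6.59 to 6.92. Its arrays read 6.56, 6.68 and 6.60 in MBs, 6.77, 6.72 and 6.65 in untransduced MTs and 7.02, 6.87 and 6.89 in TMEM38A KD, and it was not called in any comparison, the ratio of TMEM38A KD to control being 0.30 (adjusted p = 0.000249). GLUT3, the neuronal carrier encoded by Slc2a3, ranged from 6.59 to 6.81.

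Genes around glucose use were read from fixed lists of enzymes and of proteins that regulate carriers. Of 12 measured carrier partners and regulators, 5 were higher and 3 lower in myogenesis, beside 8.27% and 9.37% of all genes. In control against untransduced MTs 5 were higher and 0 lower (3.01% and 2.93% of all genes). Lower than control were 4 in NET39, 2 in TMEM38A, 2 in WFS1 and 4 in TMEM214 KD (2.08% to 2.9% of all genes). Only Sgk1, in TMEM214 KD, was higher (2.63% of all genes). Txnip, an arrestin that lowers GLUT1 at the cell surface, rose in myogenesis from 8.55 to 10.73 (4.52-fold, adjusted p = 6.90e-10) and was lower than control in all 4 KDs, with ratios from -1.74 in NET39 KD (adjusted p = 2.07e-07) to -0.95 in WFS1 KD (adjusted p = 0.000115). In WFS1 KD 6 of 18 measured genes of glycolysis and lactate metabolism were higher and 0 lower, beside 2.16% and 2.08% of all genes, with a list median of 0.17 beside -0.01 over all genes. Those were Pdk1, the kinase that restrains pyruvate dehydrogenase (3.46-fold), Pfkl, Pfkp, Pgam1, Pgk1 and Ldha, the lactate dehydrogenase subunit (1.49-fold). None of these 18 rose in NET39 or TMEM214 KD, where 2 and 5 were lower (2.16% and 2.17% of all genes), and 1, Pdk4, was higher in TMEM38A KD (2.05% of all genes). In myogenesis 4 rose, among them the muscle isoforms Pgam2 (35.4-fold), Pfkm (11.3-fold) and Eno3, and 4 fell, beside 8.27% and 9.37% of all genes.

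**Figure D2:**
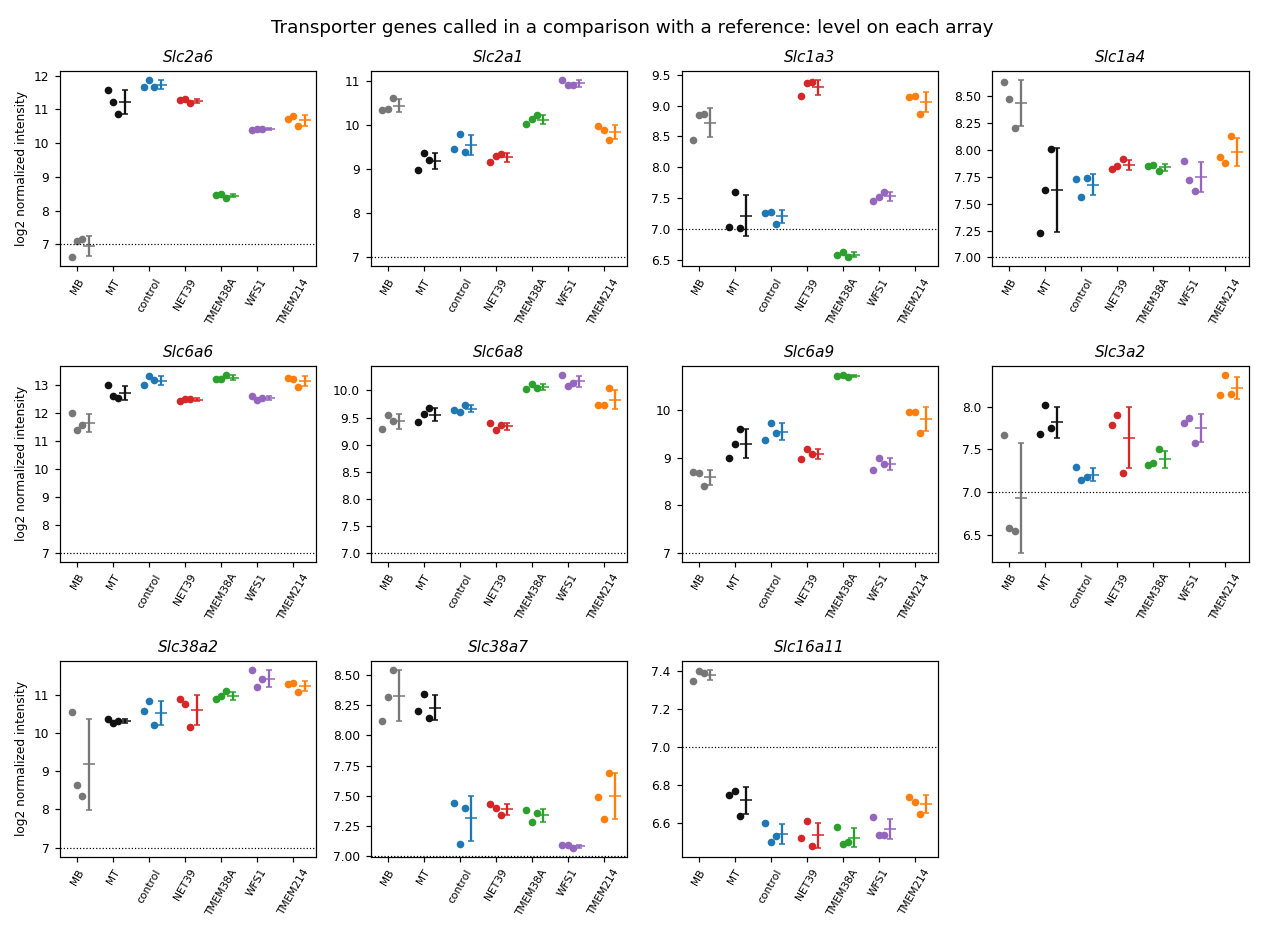
Level on each array (points, log2 normalized intensity) of the 11 carrier genes called in at least 1 comparison with a reference, by group: MB and MT are untransduced myoblasts and myotubes, control is control shRNA MTs and the others are KDs. The cross-bar to the right of the points is the mean ± SD (n = 3), the dotted line the 7.0 mark, and axes differ between genes and do not start at 0. Slc2a6 in TMEM38A KD sits at 8.38 to 8.49, between MBs and all other MTs, and Slc2a1 in WFS1 KD, at 10.90 to 11.03, lies above all other groups.

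Slc1a3 encodes the glutamate and aspartate carrier EAAT1, called GLAST in rodents and known above all from astrocytes, where it clears glutamate from synapses. MB arrays read 8.45, 8.85 and 8.87 and untransduced MT arrays 7.03, 7.60 and 7.01. The groups did not overlap and the level fell (ratio -1.51, SE 0.14, 2.84-fold, adjusted p = 1.13e-07). Control MTs read 7.26, 7.27 and 7.08, and their mean of 7.20 differed from the 7.22 of untransduced MTs by -0.01 (SE 0.14).
NET39 KD arrays read 9.16, 9.36 and 9.38 and TMEM214 KD arrays 9.14, 9.16 and 8.87. Both KDs lay above all arrays of control MTs, untransduced MTs and the other KDs, and at or above the range of MBs. In NET39 KD the rise over control was 2.10 (SE 0.14, 4.28-fold, adjusted p = 4.02e-08) and in TMEM214 KD 1.85 (SE 0.14, 3.62-fold, adjusted p = 1.64e-07). NET39 and TMEM214 KD were not called different from each other (ratio 0.24, SE 0.14, adjusted p = 0.446). TMEM38A KD moved the other way, with arrays of 6.57, 6.62 and 6.54 at the background level (ratio -0.63, SE 0.14, 1.55-fold, adjusted p = 0.00473), so that its fold is limited by the floor of the values. With background-corrected scanner intensities this ratio was -1.02 after quantile normalization and -1.17 after median scaling. In WFS1 KD the arrays read 7.46, 7.52 and 7.60 (ratio 0.32, adjusted p = 0.166), above control without being called. NET39 and TMEM38A KD differed by 2.73 (SE 0.14, adjusted p = 3.34e-10).
Markers of other cell states were read in the same groups. All 6 measured genes of dividing cells were higher in NET39 KD than in control (median ratio 1.08) and 4 of 6 in TMEM214 KD (median 0.53), beside 2.41% and 2.63% of all genes. List means per array were 8.10 to 8.24 in NET39, 7.60 to 7.64 in TMEM214, 6.94 to 7.00 in control, 6.86 to 6.92 in TMEM38A and 6.92 to 6.98 in WFS1 KD, and 11.02 to 11.31 in MBs and 7.05 to 7.56 in untransduced MTs. Of 6 fibroblast markers, Col3a1, Dcn and Pdgfrb were higher in both NET39 and TMEM214 KD, and Col3a1 and Dcn were lower in TMEM38A KD. The fibroblast list means were 8.17 to 8.35 in NET39, 8.09 to 8.11 in TMEM214, 7.22 to 7.34 in control and 6.75 to 6.83 in TMEM38A KD. Thy1 and Tcf21 of this list were at background in every group, and a probe near the floor gives no estimate of the transcript. Values in the other groups follow. MBs, where Slc1a3 was high, had fibroblast list means of 7.05 to 7.36, and untransduced MTs, with a Slc1a3 mean of 7.22 against 7.20 in control, had 7.65 to 7.81, with Dcn at 9.58 against 7.89 in control. In WFS1 KD Col3a1 was called higher (10.25 against 8.37) and Slc1a3 was not. Of 8 markers of undifferentiated myoblasts, only Id1 and Vcam1 were called lower in myogenesis and 0 higher, beside 9.37% and 8.27% of all genes. Notch1 had means of 7.69 in MBs and 8.07 in untransduced MTs, and Cdh15 of 10.53 and 10.68, so neither was higher in MBs. Vcam1 and Notch1 were higher in NET39 and TMEM214 KD, with Vcam1 at 9.23 and 8.64 against 7.15 in control. In WFS1 KD Vcam1 was higher, at 7.76, and Cdh15 lower, at 9.91 against 10.85 in control. In TMEM38A KD, where Slc1a3 was lower, Sdc4 and Notch1 were higher and Id1 was lower. Of all genes, 2.05% to 2.9% were called in each direction per KD. In bulk RNA, more cells of a kind and more RNA per cell cannot be told apart, and the part of these markers in the Slc1a3 ratios was not tested.

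Slc1a4 encodes ASCT1, a sodium-dependent exchanger of alanine, serine and cysteine. It fell in myogenesis from 8.63, 8.47 and 8.20 to 7.23, 7.63 and 8.01 (ratio -0.81, SE 0.14, 1.75-fold, adjusted p = 0.000236), with a wide spread among the MTs but no overlap. In the KDs all ratios to control lay between 0.07 and 0.30 and none was called. Its close relative Slc1a5, the glutamine carrier ASCT2, was at background, with group means of 6.48 to 6.57 and 1 of 21 arrays above the background level.
Serine-related enzymes were read beside it. Of 10 genes of serine and cysteine synthesis, Phgdh, which commits glycolytic carbon to serine, Shmt1, Shmt2 and Gclm fell in myogenesis and 0 rose, beside 9.37% and 8.27% of all genes (list median -0.37 beside -0.01). In WFS1 KD Psat1 and Mthfd2 were lower (2.08% of all genes) and in TMEM38A KD Gclm was higher (2.05%), with 0 of 10 called in NET39 or TMEM214 KD.

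Among carriers of osmolytes and high-energy compounds, Slc6a6 encodes the taurine carrier TauT. MB arrays read 12.01, 11.39 and 11.58 and untransduced MT arrays 13.02, 12.61 and 12.55. All MT arrays exceeded all MB arrays, a rise of 1.07 (SE 0.14, 2.10-fold, adjusted p = 8.85e-06). Control MTs read 13.01, 13.32 and 13.19 and were above untransduced MTs by 0.44 (adjusted p = 0.0403), without a call.
Lower than control were NET39 KD, at 12.43, 12.53 and 12.51 (ratio -0.68, SE 0.14, 1.60-fold, adjusted p = 0.00342), and WFS1 KD, at 12.61, 12.49 and 12.56 (ratio -0.62, 1.53-fold, adjusted p = 0.00723). TMEM38A and TMEM214 KD, with means of 13.28 and 13.15, were not called (ratios 0.11 and -0.03, SE 0.14). Both falls depended on the reference, since against untransduced MTs they were -0.24 and -0.17 and were not called. Between KDs, NET39 was lower than TMEM38A (-0.79) and TMEM214 (-0.66), TMEM38A was higher than WFS1 (0.73), and WFS1 was lower than TMEM214 (-0.59).

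Slc6a8 encodes the creatine carrier, which supplies muscle with the substrate of creatine kinase. Its arrays read 9.29, 9.55 and 9.44 in MBs, 9.42, 9.57 and 9.67 in untransduced MTs and 9.64, 9.61 and 9.73 in control MTs, and it did not pass the test in myogenesis (ratio 0.13, adjusted p = 0.319). The creatine enzymes were read in the same arrays. In myogenesis 4 of 6 were higher, beside 8.27% of all genes, the kinases Ckm (at least 22.1-fold, since it was not above background in MBs), Ckb and Ckmt2, and Gamt, which completes creatine synthesis.
In WFS1 KD Slc6a8 read 10.29, 10.08 and 10.13, above all control arrays (ratio 0.51, SE 0.09, 1.42-fold, adjusted p = 0.000655). That ratio was only just past the threshold, and the call was lost without control replicate 1 or 2 or WFS1 replicate 1, with array weights, and with median scaling (0.05). TMEM38A KD read 10.02, 10.12 and 10.05 (ratio 0.40, adjusted p = 0.00387) and NET39 KD 9.39, 9.27 and 9.36 (ratio -0.32, adjusted p = 0.0211), on either side of control and not called. Between these KDs the differences were called, -0.72 for NET39 against TMEM38A and -0.83 for NET39 against WFS1. Both of these calls were lost with median scaling. Of the 6 creatine enzymes, the mitochondrial kinase Ckmt2 was higher than control in TMEM38A KD (6.23-fold) and WFS1 KD (2.13-fold), and Ckm in TMEM38A KD. Of all genes, 2.05% and 2.16% were called higher in these KDs. In NET39 KD Ckm was lower (2.16% of all genes). In TMEM214 KD Gatm was higher (2.63% of all genes) and Gamt and Ckm lower (2.17%).

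Slc6a9 encodes GLYT1, the sodium-dependent glycine carrier. MB arrays read 8.69, 8.67 and 8.40 and untransduced MT arrays 8.99, 9.29 and 9.60, a rise of 0.71 without overlap (SE 0.14, 1.63-fold, adjusted p = 0.000758). Control MTs read 9.38, 9.73 and 9.52 and overlapped untransduced MTs. TMEM38A KD arrays read 10.72, 10.74 and 10.69, above all other arrays of the series, a rise over control of 1.17 (SE 0.14, 2.25-fold, adjusted p = 1.88e-05). WFS1 KD was lower, at 8.74, 9.00 and 8.86 (ratio -0.68, SE 0.14, 1.60-fold, adjusted p = 0.00412), just above the MB arrays, and its ratio was -1.23 with median scaling. NET39 KD (8.97, 9.18 and 9.08) had a ratio of -0.47, short of the ratio threshold (adjusted p = 0.0424), and TMEM214 KD (9.95, 9.97 and 9.52) one of 0.27. TMEM38A and WFS1 KD thus differed by 1.85 (SE 0.14, adjusted p = 8.27e-08). Against untransduced MTs the WFS1 ratio was -0.43 and was not called, whereas the TMEM38A ratio was 1.42 and was.
Slc6a6 and Slc6a9 each had a second probe near background, with means of 6.72 and 6.48, that was called in none of the 12 comparisons. With probes averaged, all 7 calls of Slc6a6 and 5 of the 8 calls of Slc6a9 were lost.

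Slc6a17 and Slc6a19, a vesicular and an epithelial carrier of neutral amino acids, were dim and were called only between KDs. Slc6a19 read 6.63, 6.69 and 6.70 in MBs, 7.09, 7.02 and 7.22 in untransduced MTs and 7.90, 7.74 and 7.80 in WFS1 KD. The WFS1 arrays were the highest of the series, with a ratio to control of 0.37 (adjusted p = 0.000177) that stayed under the ratio threshold. It differed by -0.78 between NET39 and WFS1 KD (SE 0.06, adjusted p = 2.73e-08). Slc6a17 had its highest group mean, 7.28, in WFS1 KD too and its lowest, 6.60, in NET39 KD, and these differed by -0.68 (SE 0.06, adjusted p = 2.62e-07). A second probe of each gene was near background and not called.

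Slc3a2 encodes CD98hc, the heavy chain that carries several SLC7 light chains to the membrane. MB arrays read 7.67, 6.58 and 6.55, with replicates 2 and 3 at background, and untransduced MT arrays 7.68, 8.02 and 7.75. MB replicate 1 lay just under the lowest MT array, and the groups did not overlap. The rise was 0.88 (SE 0.23, 1.85-fold, adjusted p = 0.00544), and it was 1.25 without that replicate. With control MTs (7.29, 7.14 and 7.18) as the end point of myogenesis, the call was lost. TMEM214 KD rose over control to 8.14, 8.37 and 8.15 (ratio 1.02, SE 0.23, 2.03-fold, adjusted p = 0.00609), above every other array, although against untransduced MTs it was 0.40 higher and not called. The other KDs had ratios of 0.19 to 0.55 and were not called.
Genes of the SLC7 family, not all of them light chains, were mostly near background. Slc7a8 (LAT2), Slc7a1 (the cationic carrier CAT1) and Slc7a11 (the cystine and glutamate exchanger xCT) had highest group means of 6.62, 6.60 and 6.81. Above the mark were Slc7a6, the y+LAT2 light chain, with group means of 7.01 to 7.30, and Slc7a4, whose transport role is not established, with 7.02 to 7.22. Neither was called in any comparison. Slc7a6os, which is not a carrier gene, read 7.68, 6.74 and 6.78 in MBs and was not called either. No probe was named here for Slc7a5 (LAT1), which was not analysed. Slc43a1, the heavy-chain-independent carrier LAT3 of branched-chain amino acids, had means of 7.22 in MBs, 6.94 in untransduced MTs and 6.66 in control MTs, with a ratio of -0.28 at each step (adjusted p = 9.68e-05 and 0.00048) that was under the threshold. Slc43a2 (LAT4) did not exceed 6.67.

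Slc38a2 encodes SNAT2, a sodium-coupled carrier of small neutral amino acids whose gene is induced when amino acids are scarce. MB arrays read 10.54, 8.63 and 8.36 and untransduced MT arrays 10.36, 10.25 and 10.32. MB replicate 1 lay above all 3 MT arrays whereas replicates 2 and 3 lay well under them, so the groups overlapped. The rise of 1.14 (SE 0.38, 2.20-fold, adjusted p = 0.0279) was lost without MB replicate 2 or 3 or any 1 untransduced MT replicate, and was 1.82 (adjusted p = 6.58e-07) without MB replicate 1. A second bright probe of Slc38a2 (mean 10.54, against 10.60 for the probe used) gave -0.40 in myogenesis and was not called, so the probes of this gene disagree. In the KDs the main probe read 11.64, 11.20 and 11.41 in WFS1 and 10.56, 10.82 and 10.20 in control, a ratio of 0.89 that did not pass the test (adjusted p = 0.166). On the second probe, tested over all probes, WFS1 KD was higher by 1.17 (adjusted p = 8.50e-05) and TMEM38A KD by 0.54 (adjusted p = 0.0400), and control exceeded untransduced MTs by 0.60 (adjusted p = 0.0167).
Genes of the amino acid response through ATF4, Atf4 itself included, were read as a list of 20. In myogenesis 4 were higher and 1 lower, beside 8.27% and 9.37% of all genes (list median -0.12 beside -0.01). In TMEM214 KD 4 were higher and 0 lower, beside 2.63% and 2.17% of all genes. In WFS1 KD 4 were higher and 3 lower (2.16% and 2.08% of all genes), and Asns, which makes asparagine and is a standard target, was lower in WFS1 KD (ratio -0.94, adjusted p = 0.0035). In NET39 KD 1 was higher and 2 lower (2.41% and 2.16% of all genes), and in TMEM38A KD 4 were higher and 1 lower (2.05% and 2.9%). List medians in the KDs were -0.17 to 0.14, beside -0.01 to 0.00 over all genes.

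Slc38a7 encodes SNAT7, which exports glutamine from lysosomes, and it was the only carrier gene called lower in control MTs than in untransduced MTs. MB arrays read 8.12, 8.32 and 8.54, untransduced MT arrays 8.20, 8.34 and 8.14, and control MT arrays 7.44, 7.10 and 7.40. All 15 transduced arrays lay under all 6 untransduced ones, between 7.07 and 7.69. The ratio of control to untransduced MTs was -0.91 (SE 0.10, 1.88-fold, adjusted p = 1.67e-05). With median scaling it was -0.11 and not called, and brightness differed between the same arrays as stated above. No KD differed from control by a call.
Slc38a9, the lysosomal carrier that reports arginine to the kinase complex mTORC1, had a ratio of 0.36 in myogenesis (adjusted p = 0.00313) and of -0.25 to -0.45 in the 4 KDs, with adjusted p of 0.00184 in WFS1, 0.00721 in TMEM214, 0.0141 in TMEM38A and 0.07 in NET39, all short of the ratio threshold. Of 21 measured genes of amino acid sensing by mTORC1, 3 rose in myogenesis (Rptor, Sesn1 and Nprl2, beside 8.27% of all genes). At most 1 was called in any KD, beside 2.05% to 2.9% of all genes in each direction. Slc38a1 (SNAT1), with means of 6.84 to 7.05, was the gene closest above the mark and was never called. Slc38a4 stayed between 6.47 and 6.71. Slc38a10, an orphan member, had a ratio of -0.45 in TMEM38A KD (adjusted p = 0.00286).

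Lactate carriers were near background. Slc16a1 (MCT1) had group means of 6.47 to 6.56 and Slc16a3 (MCT4), the lactate exporter of glycolytic fibres, 6.57 to 6.71, with 3 and 13 of the 21 arrays above the background level. They were called in no comparison, and a probe near the floor gives no estimate of the transcript. Slc16a11 and Slc16a13, neighbouring genes on chromosome 11 that encode other monocarboxylate carriers, were both highest in MBs. Slc16a11 read 7.35, 7.40 and 7.39 in MBs and 6.75, 6.77 and 6.64 in untransduced MTs, with no overlap (ratio -0.66, SE 0.05, 1.58-fold, adjusted p = 3.35e-09). Slc16a13 had a ratio of -0.40 (adjusted p = 5.68e-06), without overlap and under the threshold. Slc16a6 (MCT7) was highest in WFS1 KD, at 7.43, 7.37 and 7.42, and there exceeded NET39 KD by 0.54 and TMEM38A KD by 0.65 (ratios of the others to WFS1 of -0.54 and -0.65, adjusted p = 0.000199 and 2.88e-05). Its 2 other probes were near background.
Nearest under the mark were Slc16a9, whose highest mean of 7.00 is rounded up, Slc16a4 with 6.96, Slc7a7 with 6.93 and Slc2a4 with 6.92, and nearest above it were Slc38a1 with 7.05, Slc2a8 with 7.16 and Slc43a1 and Slc7a4 with 7.22. Slc16a4 read 6.97, 6.90 and 7.00 in NET39 KD and 6.59, 6.65 and 6.66 in control, without overlap (ratio 0.33, adjusted p = 9.42e-05, under the ratio threshold).

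**Figure D3:**
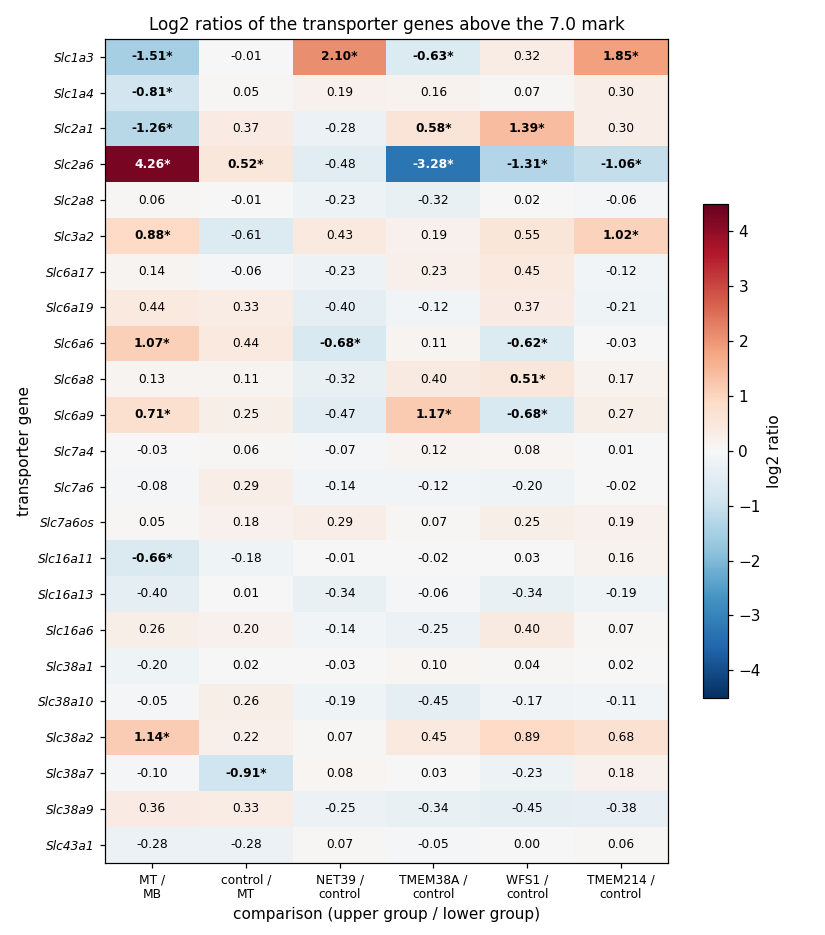
Log2 ratio (colour and number) of the 23 carrier genes above the 7.0 mark in the 6 comparisons with a reference, upper group over lower group. Asterisks and bold type mark calls (adjusted p below 0.05 and ratio above 0.5 in size). Slc2a6 has the darkest cells, 4.26 in myogenesis and -3.28 in TMEM38A KD, and Slc1a3 reaches 2.10 in NET39 KD and -0.63 in TMEM38A KD.

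Counted by comparison, 5 carrier genes rose and 4 fell in myogenesis. These are 6.25% and 5% of the 80 genes, beside 8.27% and 9.37% of all genes called higher and lower, and 8 of the 9 had no overlap between MB and MT arrays, Slc38a2 being the exception. Of all genes called in myogenesis 92.5% had no overlap, and without regard to calls 19 of the 80 carrier genes had none, beside 32.2% of all genes. With median scaling, 17.5% of all calls in myogenesis were higher rather than 46.9%, and the rises of Slc38a2, Slc3a2, Slc6a6 and Slc6a9 were no longer called. Between untransduced and control MTs 1 gene was higher and 1 lower, beside 3.01% and 2.93% of all genes, and the share of calls that were higher was 50.7%, but 99.9% with median scaling.
NET39 KD had 1 higher and 1 lower, beside 2.41% and 2.16% of all genes (52.8% of calls higher, 66.6% with median scaling, under which the fall of Slc6a6 was not called). In TMEM38A KD 2 were higher and 2 lower, beside 2.05% and 2.9% (41.4% higher, 8.29% with median scaling). WFS1 KD had 2 higher and 3 lower, beside 2.16% and 2.08% (50.9% higher, 9.5% with median scaling). In TMEM214 KD 2 were higher and 1 lower, beside 2.63% and 2.17% (54.8% higher, 68.1% with median scaling). The counts in the KDs are a few genes each, and the medians over the 80 carrier genes were -0.02 to 0.01 in the 6 comparisons, beside -0.01 to 0.00 over all genes.

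Between KDs, 33 differences of 10 carrier genes were called, with no overlap between arrays in any of them, as in 100% of the pair calls over all genes. NET39 and WFS1 KD differed in 7 genes, NET39 and TMEM38A, TMEM38A and WFS1, and WFS1 and TMEM214 in 6 each, and NET39 and TMEM214, and TMEM38A and TMEM214, in 4 each. Of all genes, 6.1% were called between NET39 and WFS1, 8.83% between NET39 and TMEM38A, 6.35% between TMEM38A and WFS1, 5.18% between WFS1 and TMEM214, 2.47% between NET39 and TMEM214 and 8.22% between TMEM38A and TMEM214. In 3 differences both KDs had been called against control in opposite directions: Slc1a3 in NET39 against TMEM38A and in TMEM38A against TMEM214, and Slc6a9 in TMEM38A against WFS1. All 4 KDs share the control arrays, so their ratios to control are not independent of one another. The share of pair calls that were higher in the first KD named moved with median scaling from 53.2% to 90.4% for NET39 against TMEM38A, 48.6% to 91.5% for NET39 against WFS1, 43.3% to 10.1% for TMEM38A against TMEM214 and 49.2% to 8.55% for WFS1 against TMEM214, and 12 of the 33 calls were lost under it.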

How the data were processed

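Biotin-labelled RNA from 21 C2C12 cultures was hybridized to Illumina mouse bead arrays, 3 per group. The deposited log2 values were quantile normalized by the authors, with limma named in the submitters' processing notes; a background correction is not given in the sources used here. The deposited scanner intensity table, neither normalized nor background-subtracted and without detection p-values or control probes, served for alternatives. Of 45281 probes, 34885 had 1 gene symbol, 18 several and 10378 were not annotated here; symbols were checked through Entrez IDs (0 changed). The brightest probe stood for each gene; the 80 genes had 161 probes, and 44 genes more than 1. Values were fitted with 1 mean per group by lmFit and eBayes (limma 3.58.1, R 4.3.3), without a filter on low values, and Benjamini-Hochberg adjusted over 19057 genes. The study's methods used moderated F-statistics, tried as an alternative. Background per array was the mode plus the upper 0.05 normal limit, with the spread taken from the values below the mode. Folds are 2 to the log2 ratio.

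The carrier families, gene lists and tests were chosen with earlier results of these data known. Named genes were, by rule, the 5 largest called rises and falls per comparison, 20 carriers known in muscle or dividing cells, the 2 largest called differences each way per pair of KDs, genes beside the 7.0 mark and up to 4 called genes per list. Scripts were tested on simulated data. The methods call the replicates biological; p-values measure the spread between these arrays. Replicates with the same number were taken to deviate together where all 3 pairs had a correlation above 0.1. This held for MBs with MTs (0.138 to 0.257), for control with untransduced MTs (0.16 to 0.214) and for NET39 KD with control (0.199 to 0.292). Only the data show it. No other comparison passed this limit in all pairs, although NET39 with WFS1 KD had 0.367, 0.03 and 0.131. The study describes its control line as an empty vector in places and as a control shRNA in others, which is not settled here.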

Additional observations from a re-analysis of the deposited data

Results flagged for a closer look

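Differences between KDs of the same control comparison were called for 10 carrier genes, 33 in all, each from the limma contrast of 1 KD with another over 19057 genes. Groups of 3 arrays were not tested for single outlying arrays. No explanation of these differences was tested.

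Slc1a3 differed in 5 of 6 pairs: by 2.73 for NET39 against TMEM38A (adjusted p = 3.34e-10), 1.77 for NET39 against WFS1 (adjusted p = 8.46e-08), -0.95 for TMEM38A against WFS1 (adjusted p = 8.84e-05), -2.48 for TMEM38A against TMEM214 (adjusted p = 9.28e-10) and -1.53 for WFS1 against TMEM214 (adjusted p = 6.42e-07). Slc2a6 also differed in 5 pairs. NET39 exceeded TMEM38A by 2.80, WFS1 by 0.83 and TMEM214 by 0.58, while TMEM38A had ratios of -1.97 to WFS1 and -2.22 to TMEM214. Slc2a1 had ratios of -0.86 for NET39 against TMEM38A, -1.68 for NET39 against WFS1, -0.59 for NET39 against TMEM214, -0.82 for TMEM38A against WFS1 and 1.09 for WFS1 against TMEM214.

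Glycine carrier gene Slc6a9 had ratios of -1.64 for NET39 against TMEM38A, -0.74 for NET39 against TMEM214, 1.85 for TMEM38A against WFS1, 0.90 for TMEM38A against TMEM214 and -0.95 for WFS1 against TMEM214. For the taurine carrier gene Slc6a6 they were -0.79 for NET39 against TMEM38A, -0.66 for NET39 against TMEM214, 0.73 for TMEM38A against WFS1 and -0.59 for WFS1 against TMEM214. Slc6a8 differed by -0.72 and -0.83 for NET39 against TMEM38A and WFS1, calls that were both lost with median scaling. Slc3a2 was -0.83 for TMEM38A against TMEM214 (adjusted p = 0.0147), a call lost without TMEM38A replicate 1 or TMEM214 replicate 2.

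Dimmer genes were called between WFS1 KD and 2 of the other KDs each. Slc6a19 had ratios of -0.78 for NET39 against WFS1 and 0.59 for WFS1 against TMEM214, Slc6a17 of -0.68 and 0.57 in the same pairs, and Slc16a6 of -0.54 for NET39 against WFS1 and -0.65 for TMEM38A against WFS1.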

How the results depend on the processing

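Over 58 called carrier-gene ratios, 835 alternative values were computed, of which 771 kept the call, 64 lost it and 0 changed sign. Counts of called genes moved by more than 1.5 times in these cases. With normexp and quantile normalization of scanner intensities they were 1 for transduction, 6 for NET39, 7 for TMEM38A, 9 for WFS1 and 8 for TMEM38A against TMEM214. Median scaling gave 18 for transduction (18 higher, 0 lower), 4 for NET39, 7 for TMEM38A, 1 for NET39 against TMEM214 and 7 for TMEM38A against TMEM214. Among calls with a reference, median scaling ended 8 and averaging probes 6. Averaging probes gave 1 for NET39, and 2 each for NET39 against TMEM214 and WFS1 against TMEM214. With untransduced MTs as reference the counts were 7 for TMEM38A and 5 for TMEM214. The cause of these shifts was not tested. Leaving out 1 replicate gave 8 to 9 in myogenesis, 1 to 3 in transduction, 2 to 3 in NET39, 4 to 4 in TMEM38A, 4 to 5 in WFS1 and 3 to 3 in TMEM214, and between KDs 6 to 7, 7 to 7, 3 to 5, 6 to 7, 3 to 4 and 6 to 7 in the order NET39 against TMEM38A, WFS1 and TMEM214, TMEM38A against WFS1 and TMEM214, and WFS1 against TMEM214. The transduction count was 1 without untransduced MT replicate 2 or 3 or control replicate 2. With the replicate block the counts were 9, 2, 2, 4, 5 and 3 for the 6 comparisons with a reference, the same genes as without it, and 6, 7, 4, 6, 4 and 6 for the pairs. Slide as a block was not run, since no slide is named. Signal close to the background floor limits 57 of the 80 genes.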

Other observations

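On the RefSeq annotation (GRCm38.p6) Slc2a6 lies between Cacfd1 and Mymk, the gene of the fusion protein myomaker, a position looked up after the Slc2a6 values were seen. Mymk rose in myogenesis from 6.77 to 11.45 (ratio 4.68, SE 0.15, adjusted p = 1.04e-13), beside 4.26 for Slc2a6, whereas Cacfd1 read 7.66 and 7.78 (ratio 0.12, adjusted p = 0.466). In TMEM38A KD the ratios to control were -3.28 for Slc2a6, -0.48 for Mymk (adjusted p = 0.0498, not called) and 0.05 for Cacfd1. In WFS1 KD Slc2a6 (-1.31) and Mymk (-0.50, adjusted p = 0.0413) were both called lower, and in TMEM214 KD the ratios were -1.06 and -0.08, the latter not called. In control against untransduced MTs Slc2a6 was called higher (0.52) and Mymk lower (-1.01, adjusted p = 0.000198). Whether the difference between the 2 genes' ratios exceeds error was not tested.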
